A study of Mus musculus with 12 samples.

Results

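The 7 vomeronasal receptor genes Vmn2r1, Vmn2r2, Vmn2r3, Vmn2r4, Vmn2r5, Vmn2r6 and Vmn2r7 lie in a row on mouse chromosome 3, and they were taken by name from 24062 gene symbols in the count tables of 12 libraries. Reads were counted on Vmn2r3 in all 12 libraries, and those of the MYC-ON livers on the No-Trp diet stood far above the rest. The other 6 genes held 39 reads in all 12 libraries together, against 5888 on Vmn2r3. The group was chosen by the difference of the Vmn2r3 counts between the liver diets, so the liver values below are a description and carry no test. The xenografts played no role in that choice.

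Vomeronasal receptors of the second type (V2R) are membrane receptors of class C, the class of the glutamate, GABA-B and calcium-sensing receptors, and have a long extracellular domain in front of the membrane-spanning part. They are known from sensory neurons of the basal layer of the vomeronasal organ, where they detect peptides and proteins such as major urinary proteins, and where the channel Trpc2 carries the signal. Vmn2r1 to Vmn2r7 make up the receptors of family C, which are found in many of these neurons together with a receptor of another V2R family.

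The livers came from male LAP-tTA/TRE-MYC mice on the FVB background, in which the liver-active LAP promoter drives the transactivator tTA and MYC is switched on when doxycycline, given to the breeders at 1 mg/mL in water, is withdrawn at birth. All 6 livers were therefore MYC-ON, and 3 were from mice on the control diet (mice 101, 102 and 103) and 3 from mice on a diet without tryptophan (No-Trp; mice 105, 107 and 108), each for 21 days. The labels give no age for the mice on these diets. The xenografts were HCC53N mouse liver cancer cells, labelled as FVB MYC ON cells that lack p53 and overexpress mutant NRAS, grown under the skin of immunodeficient hosts labelled NOD-SKID (female NOD SCID mice in the methods), with 3 tumors per diet (control 40, 41 and 43; No-Trp 35, 36 and 37). They come from 1 cell line, so they are repeats over hosts and not over tumors of independent origin. Each library was poly(A) RNA from 1 mouse, and 14660963 to 26085349 reads were counted on genes. At these depths 3 reads, taken here as the limit that a count of 0 allows, are 0.115 to 0.205 CPM (reads per 1000000 reads counted on genes).

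In the GENCODE M21 annotation of GRCm38 (mm10), Vmn2r3 (ENSMUSG00000091572.9) spans chr3:64257215-64289709 on the minus strand, with 9 transcripts. The coding transcript used here has 7 exons and a coding sequence of 2727 bases. Vmn2r1 lies at chr3:64081547-64109484 on the plus strand, and the others follow on the minus strand: Vmn2r2 at chr3:64115278-64141928, Vmn2r4 at chr3:64383044-64415368, Vmn2r5 at chr3:64488609-64509842, Vmn2r6 at chr3:64531310-64565830 and Vmn2r7 at chr3:64685044-64844765. No annotated gene overlapped Vmn2r3 in GENCODE or RefSeq (0 genes in each), so no antisense or nested partner is known that could share its reads.

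The coding sequence of Vmn2r3 was closest to that of Vmn2r7 (90.02% identical bases) and farthest from that of Vmn2r1 (85.5%). Vmn2r6 and Vmn2r7, at 98.8%, were far more alike. The sequences below were copied from the GENCODE transcripts and run 5′ to 3′ along the coding strand. The 100 coding bases show where Vmn2r3 can be told apart from its copies, and are the least alike window that aligns without a gap in all 7 genes. In Vmn2r3 it is coding bases 1391 to 1490, of which all but the first pair lie in exon 5 of 7 (chr3:64271335-64271432, minus strand). Capitals in Vmn2r3 mark the 12 bases that differ from all 6 copies, and capitals in a copy mark the bases that differ from Vmn2r3, 25 in Vmn2r5 and 37 in Vmn2r1.
Vmn2r3: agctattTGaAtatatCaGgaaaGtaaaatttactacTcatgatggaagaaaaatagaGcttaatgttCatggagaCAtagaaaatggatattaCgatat
Vmn2r1: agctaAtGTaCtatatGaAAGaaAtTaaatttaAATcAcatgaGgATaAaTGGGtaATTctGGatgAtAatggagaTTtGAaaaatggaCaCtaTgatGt
Vmn2r2: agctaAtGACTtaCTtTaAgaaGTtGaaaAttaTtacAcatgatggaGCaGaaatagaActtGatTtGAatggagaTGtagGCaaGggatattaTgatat
Vmn2r4: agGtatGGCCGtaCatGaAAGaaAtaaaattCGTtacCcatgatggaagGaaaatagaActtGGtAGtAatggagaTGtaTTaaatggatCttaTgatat
Vmn2r5: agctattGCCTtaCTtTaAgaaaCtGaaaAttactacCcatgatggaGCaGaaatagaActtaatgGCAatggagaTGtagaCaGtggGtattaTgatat
Vmn2r6: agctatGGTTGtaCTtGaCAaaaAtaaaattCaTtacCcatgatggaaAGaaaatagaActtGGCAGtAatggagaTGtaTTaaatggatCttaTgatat
Vmn2r7: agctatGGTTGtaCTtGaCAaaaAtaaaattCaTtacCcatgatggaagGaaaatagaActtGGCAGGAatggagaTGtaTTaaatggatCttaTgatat
The longest run that Vmn2r3 shares without a mismatch with another member is 255 bases long, is shared with Vmn2r1 and lies in the last exon (coding bases 2450 to 2704, chr3:64258987-64259241, minus strand). It is shown because a read wholly inside it could not be assigned to either gene, and it has no capitals since no base differs.
Vmn2r3 and Vmn2r1: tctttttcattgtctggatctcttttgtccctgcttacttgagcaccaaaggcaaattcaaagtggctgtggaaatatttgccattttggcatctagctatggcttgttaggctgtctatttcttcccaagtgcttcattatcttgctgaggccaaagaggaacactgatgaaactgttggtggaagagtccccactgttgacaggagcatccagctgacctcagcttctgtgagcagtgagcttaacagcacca

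Along the coding sequence, 263 windows of 100 bases were compared with the closest copy. The identity was 93% at the median and ran from 63% to 100%. Of the 263 windows, 92 were at most 90% identical to any copy, whereas 16, all in the last exon, were identical to Vmn2r1. When the coding sequences were searched for in the GENCODE transcripts of all other genes, 94.1% of the 100-base coding windows of Vmn2r3 occurred in none of them, the highest share of the 7. The shares were 87.0% for Vmn2r1, 84.1% for Vmn2r2, 75% for Vmn2r4, 63.9% for Vmn2r6, 55.4% for Vmn2r7 and 41.4% for Vmn2r5. The untranslated parts of the transcripts were not compared. All these sequences are those of the GRCm38 reference, and the sequences of the mice and cells used here were not examined. A count of 0 therefore covers less of the coding sequence in Vmn2r5 and Vmn2r7 than in Vmn2r3, because reads that align to several places were left out of the counts (5.24% to 8.52% of reads per library). The read length was not given in the sources used here, and the shares rise with it.

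**Figure D1:**
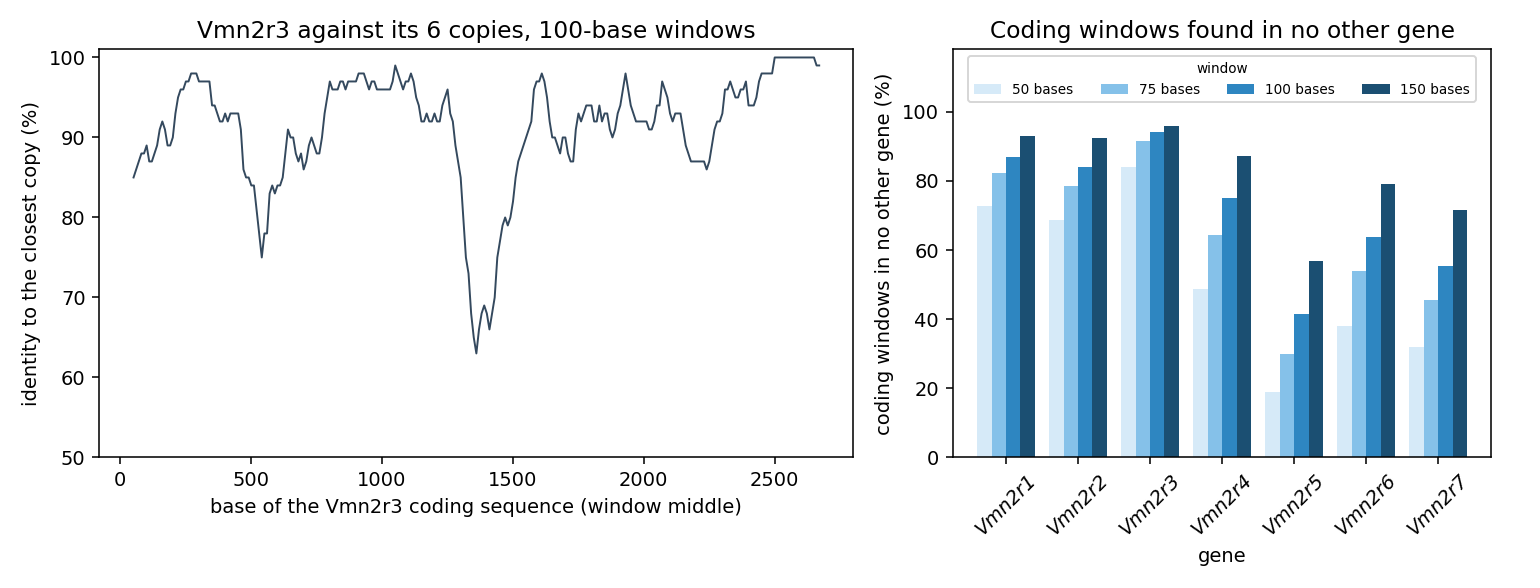
Left, identity (%) of Vmn2r3 to the closest of its 6 copies in 100-base windows against the base of the coding sequence at the window's middle. Right, share (%) of the coding windows of each gene that occur in no transcript of another gene, for 4 window lengths. Vmn2r3 dips to 63% identity in the middle of its coding sequence and reaches 100% at its end, and its bars are the highest of the 7 genes, with 94.1% at 100 bases.

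Vmn2r3 had 4, 9 and 5 reads in the control livers 101, 102 and 103. It had 2032, 2882 and 893 reads in the No-Trp livers 105, 107 and 108. All 3 No-Trp livers lay above all 3 control livers, and the groups were separated by a wide gap. In CPM of the library total, the control livers held 0.174, 0.484 and 0.216 and the No-Trp livers 101, 121 and 60.1. The means were 0.291 ± 0.168 and 94.2 ± 31.2 CPM (SD, n = 3 each), a ratio of 323. The ratio of the lowest No-Trp liver to the highest control liver was 124, whereas the No-Trp livers differed among themselves by 2.02-fold. In bulk tissue, more cells with the transcript and more transcript per cell cannot be told apart.

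For comparison, groups that did not overlap with No-Trp higher were found for 24% of the 14122 genes tested in the livers, and 9.28% of them rose by at least 1 on the log2 scale with an adjusted p no larger than 0.05. Since this contrast chose the group, nothing is read from the place of Vmn2r3 among them. In the edgeR model, the log2 fold change of Vmn2r3 was 8.60 (SE 0.55), on TMM-scaled counts. Mice 101 and 108 carry a resubmission mark in the file names, and the gap was present within them (4 and 893 reads) and within the unmarked livers (9 and 5 against 2032 and 2882). With 4 to 9 reads in the control livers, the level on the control diet is known only roughly. The exact 95% Poisson intervals of the control livers ran from 0.0474 CPM at the lowest bound to 0.919 CPM at the highest, and they cover counting error only.

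**Figure D2:**
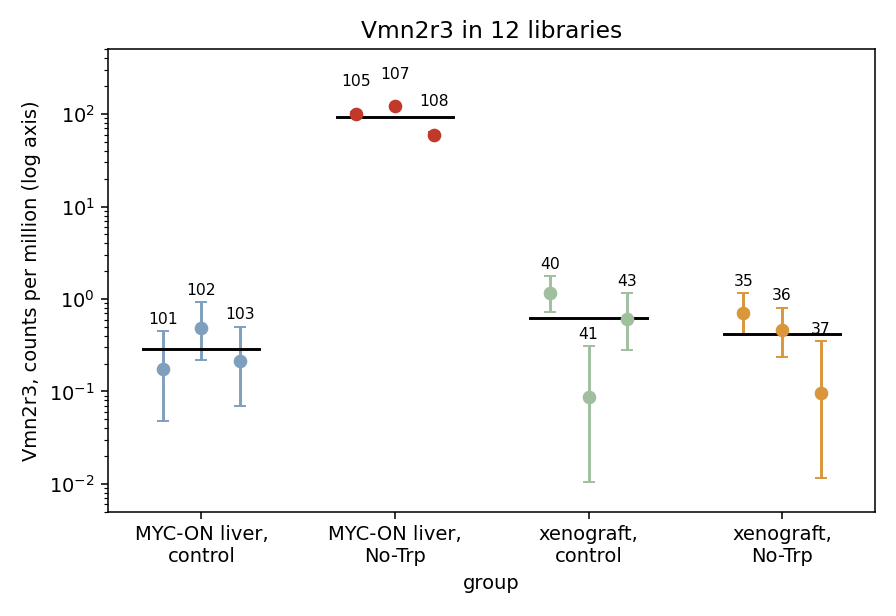
Vmn2r3 in CPM of the library total (log axis) in the 4 groups. Points are single libraries labelled by mouse, bars are exact 95% Poisson intervals of the count, and black lines are group means (n = 3). The No-Trp livers sit at 60.1 to 121 CPM, above all other libraries, of which the highest is xenograft 40 at 1.16 CPM.

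Per length, Vmn2r3 reached 37.9, 45.5 and 22.5 CPM per kb in the No-Trp livers 105, 107 and 108, over a transcript of 2670 bases. This placed it above 91.8%, 93.9% and 86.5% of 22474 genes with a known length. In the control livers it held 0.0651 to 0.181 CPM per kb, above 34.2% to 39.6% of genes. In the xenografts it held 0.0323 to 0.436 CPM per kb, above 29.1% to 43.2%. The transcript model behind this length holds coding bases only. A model with untranslated ends would change both the reads and the length, and its value per kb was not computed.

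Vmn2r3 was measured at a low level in all xenografts. It had 22, 2 and 9 reads in the control xenografts 40, 41 and 43, and 16, 12 and 2 reads in the No-Trp xenografts 35, 36 and 37. The groups overlapped: both held 1 tumor with 2 reads, and the highest value was in a control tumor. The control tumors averaged 0.622 ± 0.539 CPM and the No-Trp tumors 0.421 ± 0.307 CPM (SD over 3 tumors each). Within a diet the tumors differed by 13.5-fold (control) and 7.31-fold (No-Trp). In the edgeR quasi-likelihood test over 14704 genes the log2 fold change was -0.63 (SE 0.88, Benjamini-Hochberg adjusted p = 0.763), so a diet effect was not detectable at this depth. Without xenograft 40 the log2 fold change was 0.25 in place of -0.63, and with the resubmission mark of tumors 41 and 43 as a covariate it was -1.54 (adjusted p = 0.524). In these tumors 0.36% of the genes tested changed with the diet (53 genes), made up of 0.245% higher and 0.116% lower. Vmn2r3, the only one of the 7 receptors tested, was not among them.

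By mean level the order of the groups was No-Trp liver, control xenograft, No-Trp xenograft and control liver. The lowest No-Trp liver was 51.6-fold above the highest xenograft. The other 3 groups overlapped in every pair and did not differ beyond their spread. Whether the liver diet effect differs from that in the xenografts was not tested, since the liver contrast chose the gene. The 2 models also differ in host strain, sex and tissue.

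Vmn2r1 was the only other member with reads in more than 1 library. It had 3, 0 and 3 reads in the control livers, in the order given above, and 3, 1 and 5 in the No-Trp livers. It had 1, 3 and 5 reads in the control xenografts and 0, 1 and 10 in the No-Trp xenografts. The ranges overlapped between all groups, and the means in the livers were 0.0866 ± 0.0750 CPM (control) and 0.176 ± 0.149 CPM (No-Trp; SD, n = 3 each), both close to the limit that a count of 0 allows. In the No-Trp livers, where Vmn2r3 had 5807 reads, Vmn2r1 had 9.

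Vmn2r6 had 3 reads, all in No-Trp liver 105, and Vmn2r2 had 1 read, in No-Trp xenograft 36. Vmn2r4, Vmn2r5 and Vmn2r7 had 0 reads in all 12 libraries, which allows up to 0.115 to 0.205 CPM in a library. Of the 7 members, only Vmn2r3 passed the filter on low counts, in both models, so the other 6 were not tested and are given by their reads alone.

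**Figure D3:**
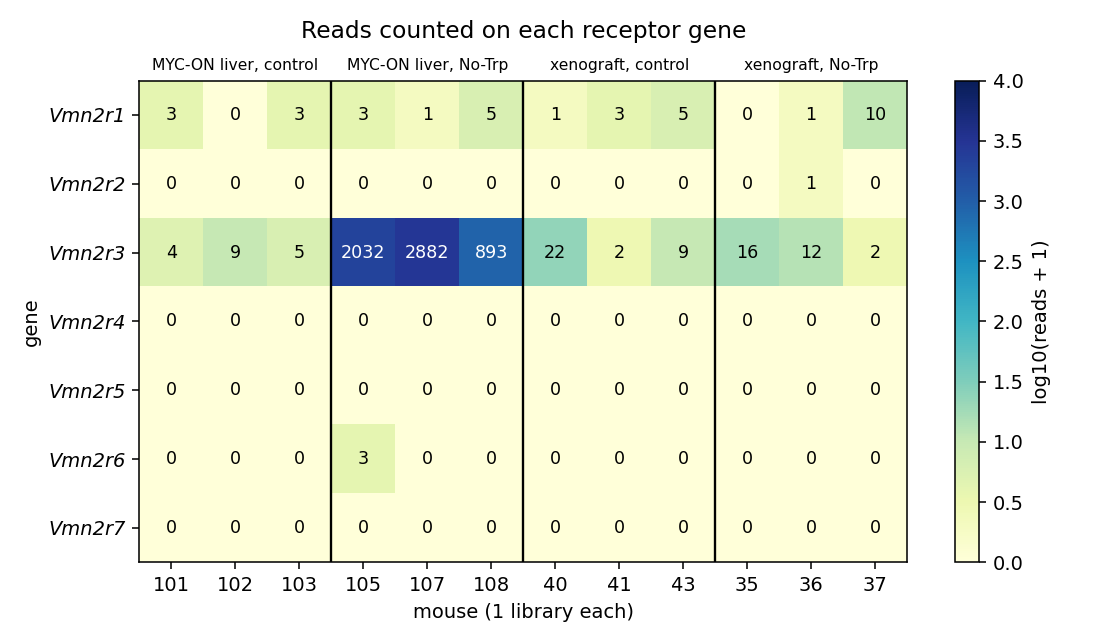
Reads counted on each of the 7 genes (vertical axis) in each library (horizontal axis, by mouse), with the count printed in each cell and color on a log10(reads + 1) scale. Vmn2r3 holds 893 to 2882 reads in the 3 No-Trp livers and 2 to 22 elsewhere, whereas no other cell exceeds 10.

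In the No-Trp livers, 5807 of the 5819 reads on the 7 genes were counted on Vmn2r3, a share of 99.8% (exact Clopper-Pearson 95% interval 99.6% to 99.9%). In the control livers the share was 75% (18 of 24 reads, 53.3% to 90.2%). It was 78.6% in the control xenografts (33 of 42, 63.2% to 89.7%) and 71.4% in the No-Trp xenografts (30 of 42, 55.4% to 84.3%). The intervals treat reads as independent and cover counting error only. Single libraries of low count went the other way: Vmn2r3 held 2 of 5 reads in control xenograft 41 and 2 of 12 in No-Trp xenograft 37, where Vmn2r1 held 10. In the 3 No-Trp livers the share was 99.44% to 99.965%.

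The count tables hold 115 further Vmn2r genes, of which 18 had any read. Their summed level was 1.00 to 2.03 CPM in the control livers and 0.348 to 0.807 CPM in the No-Trp livers. The sums did not overlap, with No-Trp lower, which was also so for 24.7% of single genes tested in the livers. The sums were 23, 31 and 47 reads in the control livers, and Vmn2r29 alone held 17, 22 and 44 of them. In the livers they held 135 reads against 5825 on Vmn2r3. Of all Vmn2r reads, Vmn2r3 held 14.4% in the control livers, 99.2% in the No-Trp livers, 16.3% in the control xenografts and 6.90% in the No-Trp xenografts.

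The other Vmn2r genes with the most reads were Vmn2r79, Vmn2r29 and Vmn2r78, with 390, 163 and 45 in all. Vmn2r79 had 0 reads in all 6 livers, 31, 34 and 27 in the control xenografts and 49, 145 and 104 in the No-Trp xenografts. Its diet groups did not overlap, but its log2 fold change of 1.27 (SE 0.46) did not pass the test (edgeR adjusted p = 0.221), and 10.8% of the genes tested in the xenografts did not overlap with No-Trp higher. Vmn2r29 overlapped between the liver diets, with 7, 15 and 11 reads in the No-Trp livers (log2 fold change -0.79, SE 0.48, edgeR adjusted p = 0.252). The pattern of Vmn2r3 was not that of either gene.

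Of the other chemosensory receptors, 20 of 208 Vmn1r genes, receptors of the first vomeronasal type, had a read, and the 2 tested in the livers did not pass (log2 fold changes of 0.54 and 0.55). Vmn1r53 was the higher of them, with 11, 32 and 11 reads in the control livers and 20, 22 and 19 in the No-Trp livers. Of 1102 odorant receptor genes 122 had a read. The single one tested in the livers was Olfr20, with 1, 2 and 5 reads in the control livers and 16, 15 and 9 in the No-Trp livers. It rose (log2 fold change 2.55, SE 0.53, edgeR adjusted p = 0.0232), from 0.106 ± 0.068 to 0.751 ± 0.118 TMM-scaled CPM (SD, n = 3 each), a level far under that of Vmn2r3. This call was lost in 4 of the 6 fits that left out 1 liver (101, 103, 105 or 107), with log2 fold changes of 2.23 to 3.03 over the 6 fits. Of the formyl peptide receptors, Fpr1 and Fpr2 were tested and did not pass in either model.

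Major urinary proteins (MUPs) are made by the liver under growth hormone and androgen control, leave the body in urine and are known ligands of V2R neurons. Their summed level over 20 genes was 66.5 to 2503 CPM in the control livers and 24.6 to 35.7 CPM in the No-Trp livers. The groups did not overlap, with No-Trp lower, as for the 24.7% of single genes given above. The spread in the control livers came from mouse 102. Reads that align to several MUP genes were left out of the counts, so the sum is not the whole MUP output. Of the 20 genes, 5 had no read in any library. The genes with reads numbered 5, 15 and 7 in control livers 101, 102 and 103. In No-Trp livers 105, 107 and 108 they numbered 5, 7 and 6. Mup3 had 1098, 33411 and 773 reads in control livers 101, 102 and 103 and 258, 521 and 184 in the No-Trp livers. Mup20, which encodes the male pheromone darcin, had 1182, 6965 and 738 reads in the control livers and 433, 225 and 152 in the No-Trp livers.

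Of the 3 MUP genes tested in the livers, none passed the test and 2 had an unadjusted p under 0.05. The log2 fold change was -3.22 for Mup20 (SE 0.98, edgeR adjusted p = 0.0521) and -4.98 for Mup3 (SE 1.64, edgeR adjusted p = 0.0644). Without mouse 102 the log2 fold changes were -1.35 for Mup20, which then passed (edgeR adjusted p = 0.0394), and -1.03 for Mup3 (edgeR adjusted p = 0.0979). DESeq2 also called Mup20 lower (adjusted p = 0.0120), and the edgeR fit of all 12 libraries called both lower (adjusted p = 0.0160 for Mup20 and 0.0225 for Mup3). The counts of Vmn2r3 in the same 3 control livers were 4, 9 and 5. In the xenografts the MUP sum was 0.603 to 1.16 CPM in control tumors and 0.387 to 8.09 CPM in No-Trp tumors. Neither of the 2 genes tested passed, although DESeq2 called Mup3 higher there (log2 fold change 2.89, adjusted p = 0.0298, against 2.82 and 0.216 in edgeR). Of the 15 genes for exocrine gland-secreted peptides, another group of V2R ligands, 2 had reads and none was tested.

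**Figure D4:**
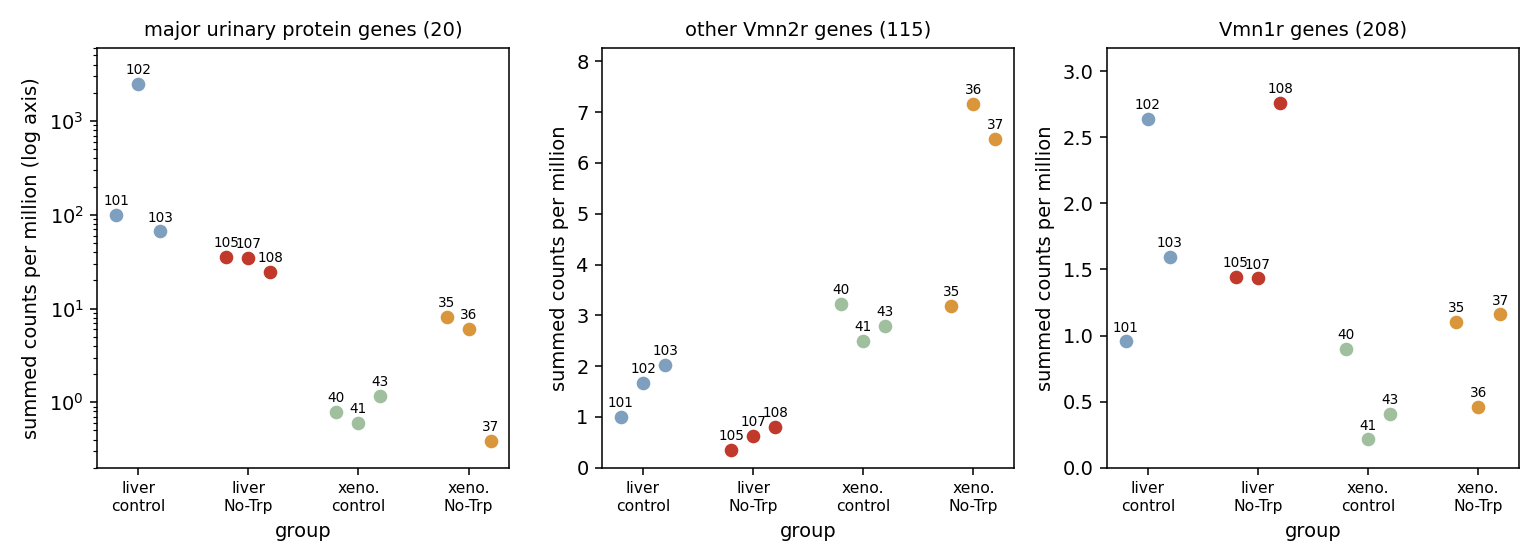
Summed CPM of the library total for the 20 major urinary protein genes (log axis), the 115 other Vmn2r genes and the 208 Vmn1r genes, by group, with each point a library labelled by mouse. The major urinary protein sum lies at 24.6 to 35.7 CPM in the No-Trp livers and reaches 2503 CPM in control liver 102, and the other Vmn2r genes reach 7.17 CPM at most. Reads that align to several genes are left out of these sums.

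Trpc2, the channel that vomeronasal neurons need for their response, had 0 reads in all 12 libraries, while Vmn2r3 had up to 2882. Of 31 genes known from vomeronasal signal transduction and neuron identity, 25 had reads and 7 were tested in the livers. Against a background of 9.28% higher and 7.27% lower, 2 of the 7 rose and none fell. These were B2m, the light chain of class I MHC molecules and of the vomeronasal H2-M10 molecules, and Meis2, a homeobox transcription factor known from apical vomeronasal neurons, both also expressed widely outside the vomeronasal organ. B2m went from 410 ± 221 to 1029 ± 153 TMM-scaled CPM (SD, n = 3 each; log2 fold change 1.34, SE 0.39, edgeR adjusted p = 0.0444). Meis2 went from 2.92 ± 1.13 to 6.44 ± 1.19 (log2 fold change 1.15, SE 0.35, edgeR adjusted p = 0.0486). Each of these calls held in 1 of the 6 fits that left out 1 liver, that without mouse 102. When libraries were scaled by their totals alone, neither was called and 1 of the 7 genes was called lower.

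Among the others with high levels, Gnai2, a G protein subunit of apical vomeronasal neurons with wide expression elsewhere, had a log2 fold change of 0.20 (SE 0.15) in the livers, and did not pass. Itpr3, an inositol trisphosphate receptor, had a log2 fold change of -0.82 (SE 0.20, edgeR adjusted p = 0.0308), short of the fold threshold. In the xenografts 12 of the genes were tested and none passed. Of 22 other class C receptors, the relatives of V2R in sequence and fold, 7 were tested in the livers and 5 in the xenografts, and none passed in either. Gabbr1, a subunit of the GABA-B receptor, went from 3.66 ± 0.57 to 5.77 ± 0.21 TMM-scaled CPM in the livers (log2 fold change 0.66, SE 0.25, edgeR adjusted p = 0.0849).

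The genes whose pattern over the 12 libraries was nearest to that of Vmn2r3 were taken as the 10 with the smallest root mean square difference in centred log2 CPM, among 15471 genes. They are given as a description, without a test, since they were sought for their likeness. In order they were Cyp4a14 (a difference of 0.81), Cyp3a44 (0.92), Cyp2a22 (1.02), Cyp2b9 (1.06), Cyp4a31 (1.13), Gm4794 (1.16), E130309F12Rik (1.30), Sult1e1 (1.41), Cyp4a10 (1.42) and Cyp2g1 (1.44). Vmn2r3 itself varied by 3.77 about its own mean on this scale. Of the 10 genes, 7 encode cytochromes P450, enzymes that oxidize fatty acids, steroids and foreign compounds, and Sult1e1 encodes the estrogen sulfotransferase.

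Cyp4a14, a fatty acid omega-hydroxylase, had 84, 650 and 368 reads in the control livers and 29247, 53820 and 22561 in the No-Trp livers. Cyp3a44 had 5, 24 and 44 reads in the control livers and 2696, 7736 and 494 in the No-Trp livers. Cyp2b9 had 84, 62 and 148 reads in the control livers and 4775, 12056 and 4823 in the No-Trp livers. These genes were thus low in the same 3 livers and high in the same 3 as Vmn2r3. Among the No-Trp livers their order differed. In CPM, mouse 108 was lowest for Vmn2r3 and for Cyp3a44, Cyp4a31, Gm4794, E130309F12Rik, Sult1e1 and Cyp2g1. Mouse 105 was lowest for Cyp4a14 (1455 CPM, against 1518 in mouse 108), Cyp2a22, Cyp2b9 and Cyp4a10.

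In the xenografts Cyp4a14 had 248, 64 and 184 reads in the control tumors and 214, 225 and 90 in the No-Trp tumors, in the order given above. As for Vmn2r3, the lowest tumor of each diet was 41 (control) or 37 (No-Trp). Over the livers alone, 6 of the 10 genes remained among the 10 nearest (Cyp2a22, Cyp2b9, Cyp3a44, Cyp4a14, Cyp4a31 and Gm4794). Several of these P450 genes have close copies in the genome, such as Cyp4a10 and Cyp4a31, and their counts depend on how reads were split between the copies.

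**Figure D5:**
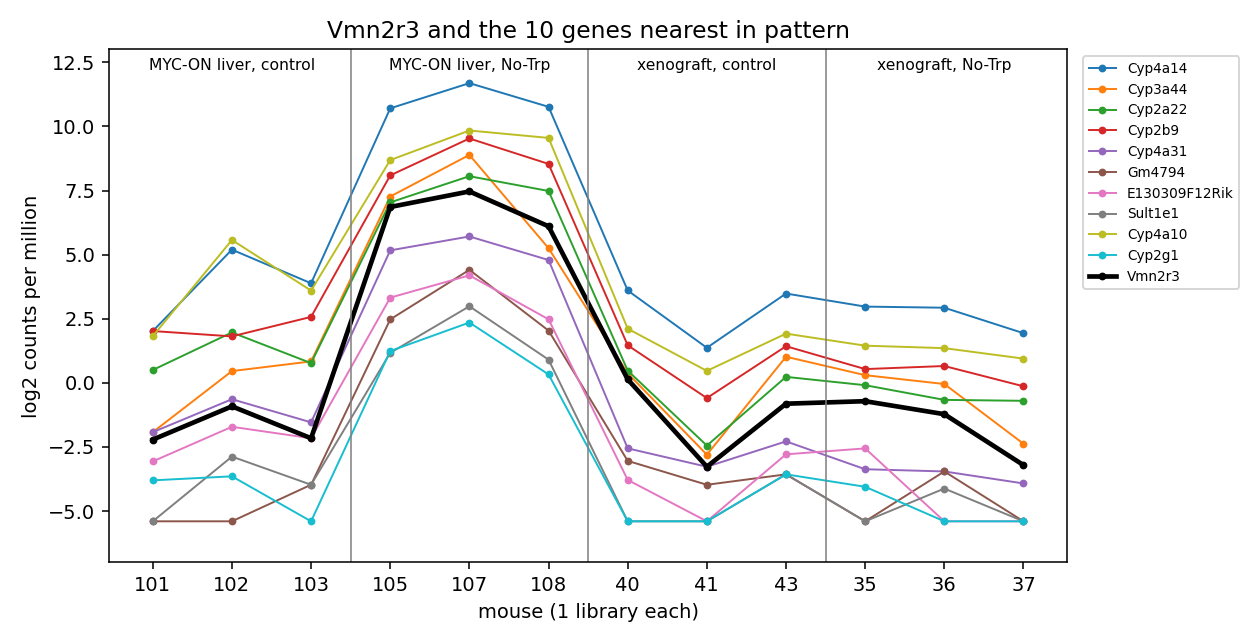
Log2 CPM (TMM-scaled over 12 libraries, prior count 0.5) of Vmn2r3 (black) and of the 10 genes nearest to it in pattern, by library. Lines join the values of 1 gene and mean no order among mice. All 11 genes lie higher in the 3 No-Trp livers than in the 9 other libraries.

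None of the genes around the 7 receptors that were tested was called higher in the livers. RefSeq lists 46 genes within 1 Mb either side, 11 of them Vmn2r pseudogenes or Vmn2r128, and 13 of the 46 were in the count tables. Of the 13, all but Vmn2r-ps11, A730090N16Rik and Mir8120 were tested in the livers. Distances were counted from the span of the 7 genes in RefSeq, chr3:64078172-64719602, where Vmn2r7 ends before its end in GENCODE. The nearest with at least 10 reads in a library were Gmps, a GMP synthetase, at 56.6 kb on one side (log2 fold change -0.11, SE 0.14, edgeR adjusted p = 0.563 in the livers) and Kcnab1, a potassium channel subunit, at 229.6 kb on the other (0.64, SE 0.48, edgeR adjusted p = 0.348). Only Plch1, a phospholipase C at 178.7 kb, was called in the livers, and it fell. It had 311, 227 and 396 reads in the control livers and 86, 36 and 98 in the No-Trp livers (log2 fold change -1.55, SE 0.42, edgeR adjusted p = 0.0371), against 7.27% of genes called lower. Without mouse 101, 103 or 105 this call was lost, with log2 fold changes of -2.00 to -1.21 over the 6 fits that left out a liver. Slc33a1 (log2 fold change 0.47), Lekr1 (0.74), Tiparp (0.75) and 4931440P22Rik (1.19) did not overlap between the liver diets, with No-Trp higher, and were not called. Groups did not overlap in this direction for 24% of the genes tested in the livers. Of the 13, 11 were tested in the xenografts and none of these was called.

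Other measures moved with the diet beside Vmn2r3, and their part in its level was not tested. The summed level of 12 hepatocyte markers was 18562 to 52513 CPM in the control livers and 51957 to 102530 CPM in the No-Trp livers. Of the 12, 4 were called higher, and 8 did not overlap between the diets, with No-Trp higher. Over all genes tested in the livers, 9.28% were called higher, 7.27% were called lower and 24% did not overlap with No-Trp higher. The diet groups of the hepatocyte sum overlapped, with control liver 102 at 52513 CPM and No-Trp liver 108 at 51957 CPM. The sum of 8 erythroid markers was 44.1 to 512 CPM in the control livers and 5.60 to 17.1 CPM in the No-Trp livers, and all 4 tested fell. The globin genes Hba-a1, Hbb-bs and Hbb-bt were at 0. The calls for hepatocyte markers numbered 0 without mouse 101, 103 or 105 and 1 without 107, and those for erythroid markers 0 without 103, 105 or 107. The 8 neuron markers summed to 3.69 to 8.93 CPM in the control livers and 6.727 to 10.315 CPM in the No-Trp livers, and none of the 4 tested in the livers or the 5 tested in the xenografts passed, although 1 was called higher in the livers without mouse 102 or with at least 10 counts in every library. Of 6 stellate cell and fibroblast markers 2 rose in the livers (Dcn and Reln), and of 6 endothelial markers 1 rose (Clec4g). There were 0 calls in either list without mouse 101 or 103 and 0 endothelial calls without 105 or 107. Among the fibroblast markers, Col1a2 went the other way without overlap (log2 fold change -0.51, SE 0.14, edgeR adjusted p = 0.0388), short of the fold threshold. Col1a1 (-0.30) and Pdgfrb (-0.24) also had negative log2 fold changes and did not pass. Of the macrophage and lymphocyte markers tested, 5 and 6, none passed, but 3 macrophage markers were called higher without mouse 102 and 1 without 107. The share of reads on Rn45s, the ribosomal RNA precursor, was 12.1%, 2.22% and 0.587% in control livers 101, 102 and 103 and 0.261% to 0.602% in the No-Trp livers. Liver 101, which stood apart here, had 4 reads on Vmn2r3. The xenografts also held hepatocyte markers, at 1400 to 3772 CPM in sum.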

How the data were processed

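Poly(A) RNA-seq of 6 MYC-ON livers and 6 HCC53N xenografts was analysed, with 3 mice per diet and model and 1 library per mouse. The authors deposited raw read counts per gene symbol, which they made by trimming with Trim Galore, aligning to mm10 with STAR (v2.7.2b), sorting with SAMtools (v1.9) and counting with HTSeq, over an iGenomes annotation. Strandedness and read length were not given in the sources used here. HTSeq sets reads with several alignments apart, and between 24.7% and 39.4% of reads per library were counted on no gene. These rows (5 closing lines per file) were left out of library sizes.

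From the counts, CPM was computed on library totals. For each model the diets were compared with edgeR (v4.0.16, R v4.3.3) after filterByExpr and TMM scaling, with the robust quasi-likelihood test, two-sided. A gene was called when it moved by at least 1 on the log2 scale and its adjusted p (Benjamini-Hochberg) did not exceed 0.05. The prior count was 0.5. Animals are the replicates, and replicate libraries differed beyond sampling noise (chi-square per degree of freedom 34.6 to 274). On simulated counts for 14163 genes of the livers and 14777 of the xenografts, 94% and 96% of genes changed 4-fold were called. Of genes changed 2-fold, 26% and 18% were called. The simulation used the same spread between replicates for every gene (a dispersion of 0.1) and changed only genes with many reads. It therefore does not show the sensitivity for genes with few reads or a wider spread.

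The 7 members, the gene lists and the rule for named genes were chosen with earlier results of these data known. Named were the members, the 10 genes nearest in pattern, of each list the genes called (at most 5) and the 4 with the highest mean CPM, neighbours within 1 Mb that were called or were nearest with at least 10 reads, and the 3 other Vmn2r genes with most reads. Of these, those that bear on a result are printed. Identity, shared windows and positions were computed with biopython (v1.88) from GENCODE M21 (GRCm38). Alternatives were DESeq2 (v1.42.0), other scaling, filters and prior counts, the resubmission mark that 4 libraries carry in the file names and whose meaning was not given, a fit of all 12 libraries, and leaving out each library.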

Additional observations from a re-analysis of the deposited data

Results flagged for a closer look

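Among the marker genes looked at beside Vmn2r3, Fabp4, the adipocyte fatty acid-binding protein, had diet differences of opposite sign in the 2 models, with no overlap between the diet groups in either. Its log2 fold change on the No-Trp diet was -1.05 in the livers (SE 0.22, edgeR adjusted p = 0.0231) and 3.43 in the xenografts (SE 0.77, edgeR adjusted p = 0.120, which does not pass). Groups did not overlap for 24.7% of genes in the livers (No-Trp lower) and 10.8% in the xenografts (No-Trp higher). The liver call was lost without mouse 101, 103, 105 or 107 and in a fit of all 12 libraries. The difference between the models was not tested. Of the 3 adipocyte markers tested in the livers, 1 was called lower (Fabp4) and 1 higher (Cidec). Cidec rose in both models, with log2 fold changes of 3.01 in the livers (SE 0.62, edgeR adjusted p = 0.0235) and 4.85 in the xenografts (SE 0.46, edgeR adjusted p = 0.0137). In the xenografts the sum of the 6 adipocyte markers was 15.3 to 74.6 CPM on the control diet and 447 to 937 CPM on the No-Trp diet, where Vmn2r3 showed no detectable change.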

How the results depend on the processing

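The log2 fold change of Vmn2r3 in the livers was 8.26 to 8.72 over 8 alternatives and 8.21 to 9.08 when 1 liver was left out. In the xenografts it was -1.54 to -0.51 over 8 alternatives, never past the test, and -1.16 to 0.25 when 1 tumor was left out, turning sign without control tumor 40 (0.25). It could not be given with a minimum of 10 counts in every library, which the gene does not reach. Of the reads on all Vmn2r genes, Vmn2r3 held 14.4%, 99.2%, 16.3% and 6.90% (control livers, No-Trp livers, control and No-Trp xenografts), in place of its share of the reads on the 7 members. With 1 library left out, its share of the reads on the 7 members was 60.0% to 82.4%, 99.6% to 99.9%, 57.9% to 85.7% and 53.8% to 93.3%. Of the 10 genes nearest in pattern, 6 remained over the livers alone.

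The backgrounds moved more. In the livers, 732 genes rose with library totals in place of TMM against 1310. Leaving out 1 liver gave 7 to 1957 higher and 1 to 1246 lower genes, with counts moved over 1.5 times without mouse 101, 103, 105 or 107 and lowest without 103. In the xenografts (36 higher, 17 lower), the counts were 250 and 130 with DESeq2, 56 and 26 with RLE factors, 59 and 11 with library totals, 73 and 45 without a filter, 10 and 5 with at least 10 counts in every library, 3 and 1 with the resubmission covariate and 18 and 5 in a fit of all 12 libraries. Leaving out 1 tumor gave 7 to 35 higher and 2 to 43 lower, and each tumor moved at least 1 of these counts over 1.5 times. The cause was not tested. No paired analysis was possible because no 2 groups share animal numbers. Depth limits the 6 other members, whose counts of 0 allow up to 0.205 CPM by the limit of 3 reads and 0.252 CPM by the exact Poisson interval.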
